A study of Mus musculus with 4 samples.

Results

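The potassium channel genes are the 92 genes, of 48425 in the table, whose symbol is Kcn followed by letters and a final number. They encode pore-forming and accessory subunits, and overlapping transcripts such as Kcnq1ot1 are left out. RNA was measured in mesothelial cells, the flat lining cells of the peritoneal cavity, of C57BL/6 mice, 10 weeks of age, labelled WT and with no treatment named. The 4 libraries form 1 group and are called animals 1 to 4 by their label numbers, although the labels do not say whether a library is 1 mouse or a pool. The cells were detached with trypsin for 20 min at 37 °C and sorted fresh as CD45-negative, Pdpn-positive and Gpm6a-positive, so the levels describe cells that had been through digestion and sorting. There is no second group, and the labels give no sex. Levels are in CPM, a gene's estimated count per 1000000 counts of its library, and are given as mean ± SD over n = 4 animals.

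Potassium channels let potassium leave or enter the cell along its gradient and thereby set the membrane potential. Voltage-gated channels open on depolarisation, inward rectifiers and tandem-pore (K2P) channels carry resting currents, and other channels open with intracellular calcium or sodium. Accessory subunits do not conduct on their own but alter the trafficking and gating of the pore. In lining epithelia such channels work beside the sodium pump, potassium-chloride cotransport and cell volume control.

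The libraries held 4090224 to 4569578 estimated counts, and 3 counts correspond to 0.657 to 0.733 CPM in a library and to 0.171 CPM over all 4, which is the floor for a gene at 0. The floor takes in counting error alone, because the reads carry no molecular identifiers. All 12 mesothelial marker genes lay above 1 CPM, with summed levels of 12983 to 14984 CPM per animal, and so did 7 of 8 fibroblast genes (14037 to 20940 CPM). Of 8 leukocyte genes 0 passed (0.883 to 14.6 CPM, highest in animal 1, with Itgam at 0) and of 8 neuron and Schwann genes 0 passed (0.116 to 4.89 CPM, 5 of them at 0, Snap25, Elavl4, Syt1 and Sox10 included). In these last 2 lists 1 and 0 genes had an unadjusted p under 0.05 by edgeR, and 0 passed by limma with voom weights or by DESeq2. Of 12 smooth muscle and pericyte genes 6 passed (115 to 231 CPM, Notch3 and Lmod1 at 0), of 8 blood endothelial genes 2 (35.6 to 70.3 CPM, Cdh5 and Emcn at 0), and of 6 skeletal muscle genes 1 (4.39 to 7.38 CPM, Ckm and Myh4 at 0). In sorted bulk RNA a few cells with much of a transcript and many cells with little of it cannot be told apart.

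Few potassium channel genes lay above 1 CPM in the mesothelial cells. Every gene of the table was tested one-sided against that level with edgeR's quasi-likelihood test (Benjamini-Hochberg adjustment over 48425 genes, threshold 0.05). Of the 92 members 15 passed, which is 16.3%, beside a background of 24.7% of all genes and 50.9% of protein-coding genes. Another 39 members had some counts without passing, and 38 members (41.3%, against 52.6% of all genes) had no count in any animal. The median member stood at 0.106 CPM and the median gene of the table at 0. All 92 members are protein-coding, as are 21492 of the 48425 genes. The share at 0 and the median were not taken over protein-coding genes alone, so these backgrounds are not of like kind. Counts were present in all 4 animals for 19 members, and in 1 animal only for 17. At an unadjusted p under 0.05 the count was also 15. By limma with voom weights 8 of the 15 passed (background 23.7%), and by DESeq2's Wald test 13 of them (background 51.7% of 22601 genes with an adjusted p). Genes without counts, the 38 members at 0 included, have no adjusted p in DESeq2, so 13 of 92 is not the like share. Neither tool added a member. Among the 14922 genes with at least 10 counts the background was 81.8%, with 15 members called. That filter also removed members with fewer counts, so this background cannot be set against 15 of 92. Without animal 1, 2, 3 or 4 the members numbered 14, 13, 12 and 13, beside 24.5%, 24.3%, 24.2% and 24.3% of all genes.

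The members that passed were spread over all classes. Among the voltage-gated pore genes 7 of 30 passed and 10 were at 0. Among the silent modifiers, which resemble voltage-gated subunits but conduct only together with another subunit, 2 of 10 passed and 5 were at 0. Accessory genes passed in 2 of 15 cases, inward rectifiers in 1 of 15 with 8 at 0, and K2P genes in 1 of 14 with 9 at 0. In the class opened by calcium or sodium, with related genes, 2 of 8 passed and 1 was at 0.

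**Figure D1:**
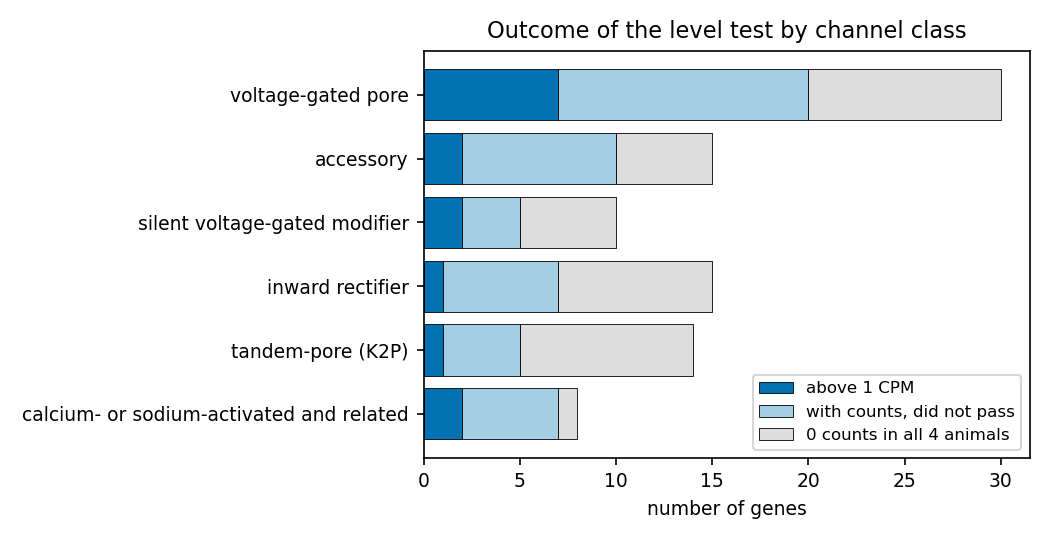
Number of potassium channel genes (horizontal axis) in each of 6 channel classes, divided into genes above 1 CPM by the edgeR test, genes with counts that did not pass, and genes with 0 counts in all 4 animals. Voltage-gated pore genes hold 7 of the 15 genes that passed, and 9 of 14 K2P genes are at 0.

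The 4 members with the highest level per length were Kcnab1, Kcnj8, Kcnk5 and Kcnd3, at 29.0 ± 5.31, 11.1 ± 5.82, 10.1 ± 3.73 and 9.26 ± 1.94 CPM per kb of median transcript length. Kcnab1 did not overlap the other 3 in any animal, whereas those 3 did not differ beyond their spread. Kcnab1 has 3 start sites in the RefSeq promoter table and the other 3 have 1 each, so the 250 bases before the start are shown for those 3 (RefSeq, GRCm38.p6, 5′ to 3′ on the gene's strand, CG dinucleotides in capitals). They are shown because these are the most abundant pore genes per length and their starts differ in CG content.
Kcnj8, chr6:142571615-142571864, minus strand: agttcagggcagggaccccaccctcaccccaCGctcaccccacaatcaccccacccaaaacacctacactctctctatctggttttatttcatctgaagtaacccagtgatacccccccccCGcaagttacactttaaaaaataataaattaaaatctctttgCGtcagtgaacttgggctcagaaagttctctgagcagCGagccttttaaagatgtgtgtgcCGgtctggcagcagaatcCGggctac
Kcnd3, chr3:105451640-105451889, plus strand: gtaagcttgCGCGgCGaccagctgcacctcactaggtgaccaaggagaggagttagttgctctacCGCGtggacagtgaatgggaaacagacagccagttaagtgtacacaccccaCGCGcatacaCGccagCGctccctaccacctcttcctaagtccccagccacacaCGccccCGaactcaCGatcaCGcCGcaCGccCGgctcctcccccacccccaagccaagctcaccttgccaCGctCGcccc
Kcnk5, chr14:20181783-20182032, minus strand: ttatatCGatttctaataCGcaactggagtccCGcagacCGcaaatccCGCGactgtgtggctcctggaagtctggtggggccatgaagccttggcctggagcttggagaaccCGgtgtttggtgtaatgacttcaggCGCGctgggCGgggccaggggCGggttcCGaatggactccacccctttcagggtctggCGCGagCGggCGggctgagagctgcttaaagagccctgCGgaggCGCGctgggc
The Kcnj8 stretch holds 6 CG dinucleotides at 49.2% G and C. The Kcnd3 stretch holds 18 and the Kcnk5 stretch 19, each at 62.8% G and C. High transcript levels thus occurred with a CG-poor and with CG-rich starts.

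Kcnab1 encodes a beta subunit of Kv1 channels, a cytoplasmic protein related to aldo-keto reductases that speeds the inactivation of the pore it binds. It lies on chromosome 3 at 65109384 to 65378223 (GRCm38). Its levels were 74.7, 52.9, 68.3 and 83.2 CPM in animals 1 to 4, a mean of 69.8 ± 12.8 CPM (adjusted p = 2.68e-24 by edgeR). All 4 animals were close together: the coefficient of variation was 18.3%, against a median of 18.7% over 3257 passing genes with a mean within 2-fold of it. Kcnab2, the paralog that is common in leukocytes and brain, had 0, 0.397, 3.28 and 0 CPM and did not pass. Kcnab3 had no count. An antisense gene that shares exonic sequence with Kcnab1, A330015K06Rik, had at most 0.552 CPM. Per length and within an animal, Kcnab1 exceeded Kcnab2 in 4 of 4 animals, by 4.67 ± 1.80 on the scale of log2(CPM per kb + 0.5), the scale of every such difference below.

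The Kv1 pore genes that a beta subunit would bind were low beside it. Of 8 Kcna genes only Kcna1, the shaker-type delayed rectifier, passed, and 4 were at 0. Kcna1 had 5.76, 4.46, 7.38 and 2.86 CPM (5.12 ± 1.92 CPM, adjusted p = 1.49e-06 by edgeR), with every animal above 1 CPM. Kcnab1 exceeded Kcna1 per length by 3.82 ± 0.57, in 4 of 4 animals. That pair was chosen after the levels had been seen and has no test. Kcna4 reached 0.413 CPM on average and did not pass, and Kcna3, the Kv1 channel of T cells, had no count.

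Kcnd3 encodes a Kv4 pore subunit of the rapidly inactivating A-type current and lies on chromosome 3 at 105452330 to 105674002. It had 17.8, 24.0, 29.8 and 27.3 CPM, a mean of 24.7 ± 5.16 CPM (adjusted p = 3.92e-18 by edgeR). The animals differed by less than 2-fold. Some reads may belong to Kcnd3os, an antisense gene that shares exonic sequence with it and had 1.83, 4.21, 1.29 and 4.23 CPM, because it is not given whether the library kept strand. Its paralog Kcnd1 had 1.15, 9.64, 7.91 and 2.15 CPM (5.22 ± 4.20 CPM, adjusted p = 1.15e-05 by edgeR). Animals 2 and 3 were high for Kcnd1 and animals 1 and 4 low. Kcnd2 had 0.417, 3.50, 1.89 and 0.706 CPM and did not pass. Kcnd3 exceeded Kcnd1 per length in 4 of 4 animals, the difference of Kcnd1 over Kcnd3 being -2.36 ± 0.87.

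Kv4 pores carry calcium-binding KChIP subunits, encoded by the Kcnip genes, and the membrane partners Dpp6 and Dpp10. Kcnip3 had 4.93, 0, 5.41 and 1.99 CPM (3.08 ± 2.55 CPM, adjusted p = 0.0133 by edgeR). It was absent from the counts of animal 2, and the call was lost without animal 1 (adjusted p = 0.139 by edgeR) and without animal 3 (0.206). Kcnip1 had 2.13 CPM in animal 3 and no count elsewhere, and Kcnip2 and Kcnip4 had none. Dpp10 stood at 0.850 ± 0.566 CPM and Dpp6 at 0 in 3 of 4 animals, and neither passed. Per length Kcnd3 exceeded Kcnip3 by 2.56 ± 1.29 in 4 of 4 animals, a pair chosen after the levels had been seen.

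Kcnb2, a delayed rectifier pore, had 1.24, 0.436, 5.02 and 5.61 CPM (3.08 ± 2.62 CPM, adjusted p = 0.00770 by edgeR), with animals 3 and 4 high. It did not pass once animal 3 (0.119) or animal 4 (0.203) was left out.

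Kcns3, a silent modifier that slows Kv2 gating, had 8.26, 4.80, 11.5 and 9.82 CPM (8.61 ± 2.87 CPM, adjusted p = 2.12e-10 by edgeR). Every animal lay well above 1 CPM, while Kcns1 and Kcns2 had no count. Kcng4, another modifier, had 0.943, 5.75, 3.39 and 1.42 CPM (2.87 ± 2.19 CPM, adjusted p = 0.0129 by edgeR). Animal 2 was highest for Kcng4, and it did not pass once animal 2 (0.406) or animal 3 (0.0528) was left out. Kcng1, Kcng2 and Kcng3 had no count. Kcnf1 had 0.419 to 2.36 CPM and did not pass. Amigo1, an adhesion protein that accompanies Kv2 channels, had 11.4 ± 5.39 CPM and passed.

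**Figure D2:**
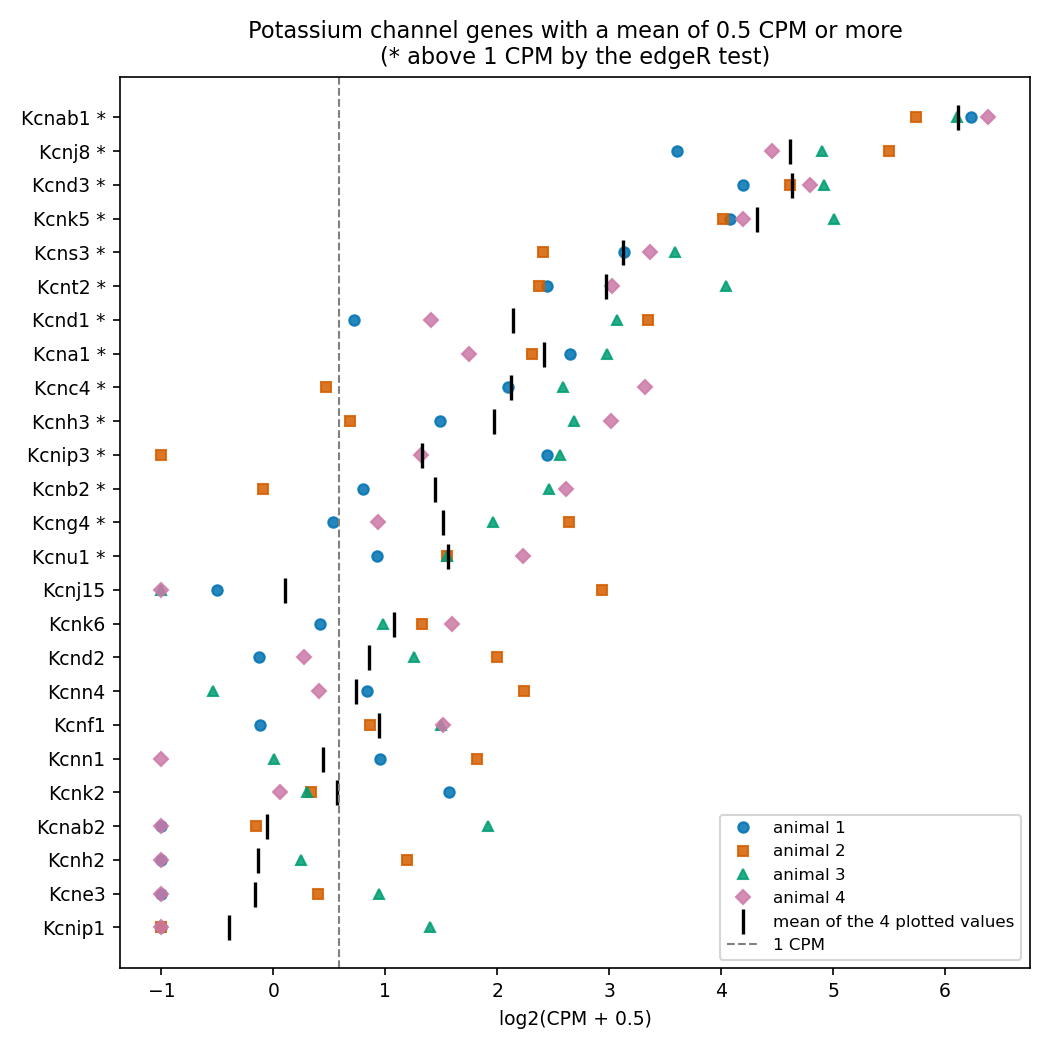
Level of 25 potassium channel genes with a mean of at least 0.5 CPM, on the horizontal axis as log2(CPM + 0.5), with 1 symbol per animal and a bar at the mean of the 4 plotted values. The dashed line marks 1 CPM. Kcnab1 lies at 52.9 to 83.2 CPM in all 4 animals. The genes from Kcnj15 down have at least 1 animal below 1 CPM, and so do Kcnc4, Kcnip3, Kcnb2 and Kcng4, which passed.

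The remaining voltage-gated pores were sparse. Kcnc4, a fast Kv3 channel, had 3.78, 0.883, 5.51 and 9.47 CPM (4.91 ± 3.59 CPM, adjusted p = 1.96e-05 by edgeR). Kcnh3, of the ether-a-go-go family, had 2.31, 1.10, 5.94 and 7.58 CPM (4.23 ± 3.03 CPM, adjusted p = 0.000107 by edgeR). Both were highest in animal 4 and lowest in animal 2. Kcnh3 shares exonic sequence with the antisense gene Mcrs1, at 29.6, 47.3, 58.8 and 40.3 CPM, and without strand the reads of the overlap cannot be told apart.

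Kcnq1, the pore that Kcne subunits join in epithelia, had no count, while its antisense transcript Kcnq1ot1 stood at 69.1, 57.4, 26.7 and 33.6 CPM. Kcnq1ot1 shares exonic sequence with Kcnq1, and here too the reads of the overlap cannot be told apart without strand. None of 4 Kcne genes passed, and the highest, Kcne3, had 0, 0.818, 1.42 and 0 CPM. Kcnh2, the channel of cardiac repolarisation, had 0, 1.79, 0.689 and 0 CPM and did not pass.

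Kcnj8 was the 1 inward rectifier that passed. It encodes the vascular-type pore of ATP-sensitive potassium channels and lies on chromosome 6 at 142564837 to 142571614. Its levels were 11.7, 44.8, 29.4 and 21.5 CPM, a mean of 26.8 ± 14.01 CPM (adjusted p = 5.51e-17 by edgeR). The lowest and the highest animal differed 3.85-fold, and its coefficient of variation of 52.2% stood beside a median of 25.6% for 4745 passing genes of like level. Kcnj11, the pore of the pancreatic and neuronal form, had no count. Kcnj8 was at least 32.3-fold higher than Kcnj11 per length, taking Kcnj11 at its floor over the group.

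ATP-sensitive channels need a sulfonylurea receptor around the Kcnj pore, and neither receptor gene passed. Abcc9 had 0, 0.416, 5.16 and 2.002 CPM and Abcc8 had 2.71, 1.48, 0.301 and 0 CPM. Which receptor prevailed was not settled: Abcc9 over Abcc8 was -0.64 ± 1.61 per length, with 2 of 4 animals each way, and the sign turned with the longest transcript as length (0.022) or without division by length (0.34). Pericytes are the best known cells with Kcnj8 and Abcc9. In the list of 12 smooth muscle and pericyte genes, whose sums were 231, 123, 187 and 115 CPM in animals 1 to 4, the 6 that passed were Acta2 (96.0 CPM on average), Des (24.7), Tagln (18.7), Myh11 (10.4), Pdgfrb (4.53) and Cspg4 (4.17). Pdgfrb stood at 2.93, 7.48, 4.65 and 3.07 CPM, highest in animal 2 as Kcnj8 was, and Cspg4 at 2.99, 4.67, 4.49 and 4.51 CPM, also highest there. The others that passed did not peak in animal 2. Acta2 (152, 60.6, 107 and 64.2 CPM), Tagln (43.1, 7.92, 9.27 and 14.3) and Myh11 (11.8, 5.50, 14.8 and 9.68) were lowest there. Des had 13.8, 34.3, 35.6 and 15.3 CPM, highest in animal 3. Notch3 and Lmod1 were at 0, and Rgs5 had 0.683 CPM in animal 2 and 0 elsewhere. The summed fibroblast list stood at 14037, 20940, 18172 and 14082 CPM in animals 1 to 4, highest in animal 2 too. That sum was mostly Dcn, at 12889 CPM on average. Within the list Thy1 was lowest in animal 2, at 10.5 CPM, and Col1a1 was highest in animal 3, at 1400 CPM. The summed mesothelial list was highest in animal 2 as well, at 13742, 14984, 14073 and 12983 CPM. The part of any of these lists in the result was not tested.

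Other inward rectifiers did not pass. Kcnj15 had 7.16 CPM in animal 2, 0.204 CPM in animal 1 and no count in the others. Kcnj2, the classical strong rectifier, had 0.627, 1.10, 0 and 0 CPM. Kcnj8 exceeded Kcnj2 per length in 4 of 4 animals, by 4.20 ± 0.76.

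**Figure D3:**
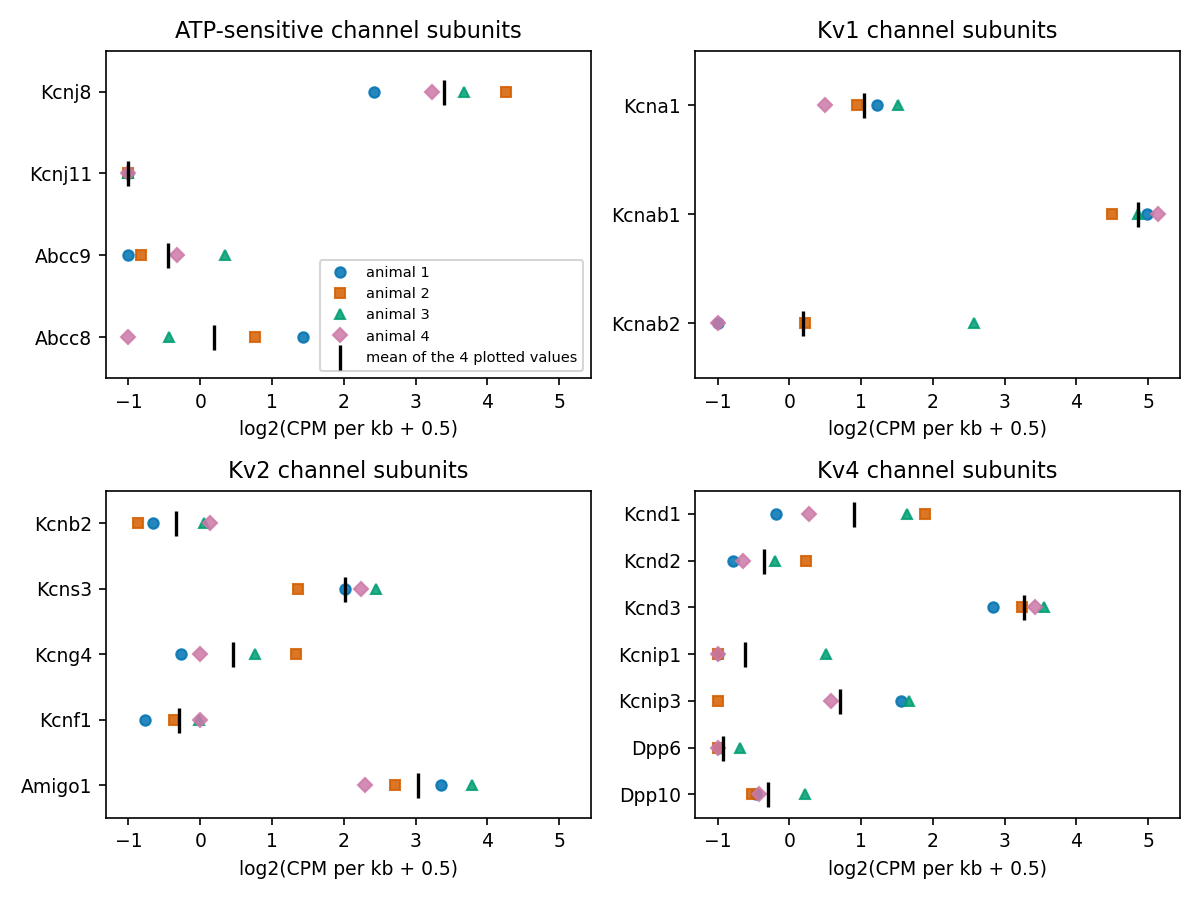
Subunits of 4 channel complexes, grouped after the levels had been seen, with level per length on the horizontal axis as log2(CPM per kb + 0.5), 1 symbol per animal and a bar at the mean of the 4 plotted values. Kcnj8, Kcnab1 and Kcnd3 stand above the other potassium channel subunits of their panels in every animal, while Kcnj11 is at 0 in all 4.

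Kcnk5 was the 1 K2P gene that passed. It encodes an alkaline-activated background channel known from volume and bicarbonate handling in epithelia, and lies on chromosome 14 at 20140057 to 20181809. It had 16.4, 15.7, 31.6 and 17.8 CPM, a mean of 20.4 ± 7.56 CPM (adjusted p = 1.87e-16 by edgeR). Animals 1, 2 and 4 were nearly equal and animal 3 was higher. The acid-sensitive relative Kcnk3 had 0.221 CPM in animal 2 and no count elsewhere, and Kcnk5 exceeded it per length in 4 of 4 animals, by 4.28 ± 0.52.

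No other K2P gene passed. Kcnk6 had 0.837, 2.02, 1.47 and 2.52 CPM and did not pass, although 3 of 4 animals reached 1 CPM. It shares 117 bases at 95.7% identity with Adprh, a gene at 45.6 CPM, and 105 bases at 96.2% with Col26a1, at 0.764 CPM, so its low level may hold reads of those genes. Its close relative Kcnk1 had no count, so that Kcnk1 over Kcnk6 was -1.23 ± 0.37 per length. Kcnk2, the mechanosensitive channel, had 2.47, 0.762, 0.732 and 0.542 CPM, highest in animal 1, and did not pass. The related mechanosensitive genes Kcnk4 and Kcnk10 had no count.

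Channels opened by intracellular sodium or calcium gave a divided picture. Kcnt2, a sodium-activated channel, had 4.96, 4.68, 16.0 and 7.66 CPM (8.33 ± 5.31 CPM, adjusted p = 1.50e-09 by edgeR), with animal 3 highest. Its paralog Kcnt1 had 1.18 CPM in animal 2 and no count elsewhere, and Kcnt1 over Kcnt2 was -2.66 ± 0.96 per length, lower in 4 of 4 animals. Kcnu1, a relative best known from sperm, had 1.40, 2.44, 2.42 and 4.18 CPM (2.61 ± 1.15 CPM, adjusted p = 0.0224 by edgeR), and it did not pass once animal 2 (0.0529) or animal 4 (0.215) was left out.

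The calcium-activated channels themselves did not pass. Kcnn4, the intermediate-conductance channel of leukocytes and epithelia, had 1.29, 4.21, 0.186 and 0.830 CPM. Kcnn1 had 1.43, 3.02, 0.503 and 0 CPM, and it carries a repeat-like stretch of at least 100 bases at 95% identity or more that other transcripts also hold. Kcnma1, the large-conductance channel, had 0.630 CPM in animal 4 and no count elsewhere, and of its 4 beta subunits none passed. Kcnmb1, abundant in smooth muscle, stood at 0.380 CPM on average. Kcnn4 exceeded Kcnma1 per length in 4 of 4 animals, by 1.08 ± 0.98, a difference about as large as its spread.

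**Figure D4:**
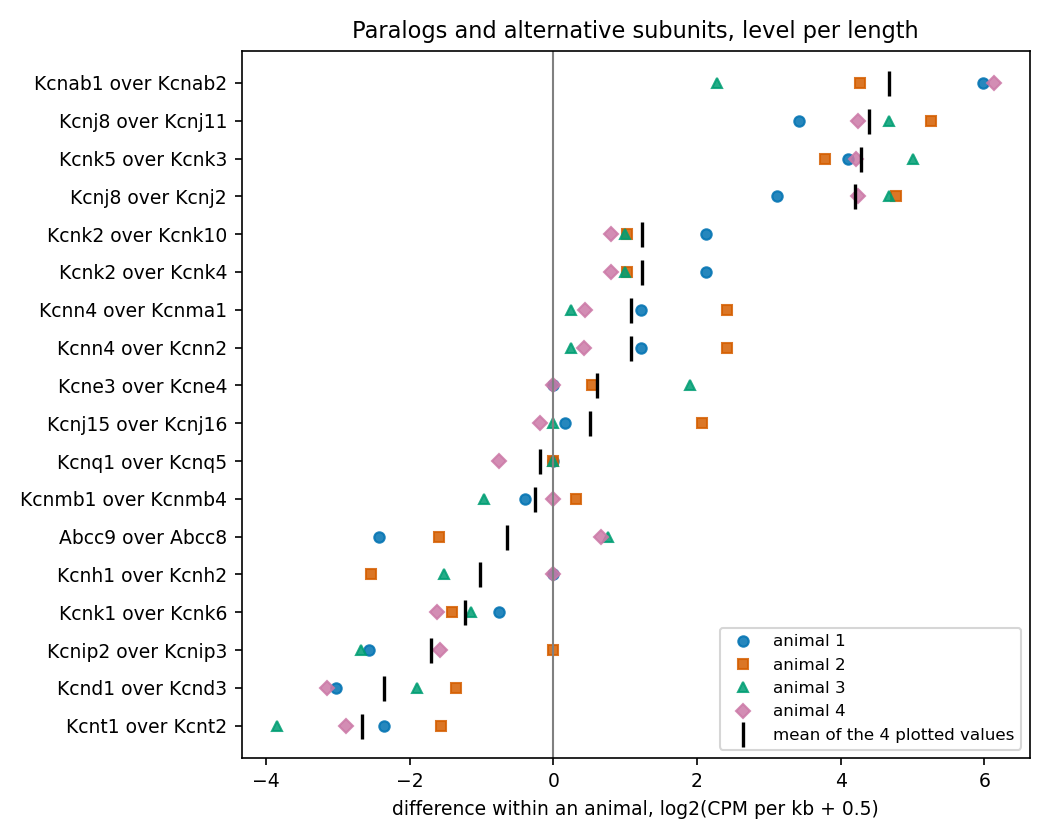
Differences between paralogs or alternative subunits within each animal, on the horizontal axis as log2(CPM per kb + 0.5) of the first gene minus that of the second, with 1 symbol per animal and a bar at their mean. In 11 of 18 pairs all 4 animals lie on one side of 0. Where a gene of the pair had no count in any animal, that side was fixed in advance.

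Of 19 planned gene pairs reported here, 18 were compared, and in Kcna3 with Kcna5 both genes were at or under the floor of 3 counts. All 4 animals lay on one side in 11 pairs, which gives an exact two-sided sign-flip permutation p = 0.13 in each, the smallest that 4 animals allow. No pair can therefore reach 0.05 in this design, and the differences are read against their SD. The largest were those of Kcnab1 over Kcnab2, Kcnj8 over Kcnj11, Kcnk5 over Kcnk3 and Kcnj8 over Kcnj2, all above 4 on the log2 scale. Differences against a gene at 0 depend on the pseudocount and are no folds. Among the 11 pairs, Kcnj11, Kcnk1, Kcnk4 and Kcnk10 had no count in any animal, so the direction of their pairs was fixed in advance. Some pairs also share a gene, as Kcnk2 with Kcnk10 and with Kcnk4, so the 11 are not separate results.

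Summed over the family, the animals held 169.9, 207, 272 and 219 CPM, a mean of 217 ± 42.3 CPM. Kcnab1 took 43.9%, 25.5%, 25.1% and 38.0% of that sum, and the 15 passing genes 83.5% to 94.3%. These shares are of reads, so longer transcripts weigh more. Animal 3 had the highest sum, and 7 of the 15 passing genes were highest there. Animal 2 was the lowest for 9 of the 15 passing genes, although it had the most members with counts (40, against 31 to 33). Voltage-gated pore genes made up 21.8%, 24.4%, 33.2% and 28.8% of the sum, and inward rectifiers 7.47%, 25.9%, 10.8% and 10.1%.

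**Figure D5:**
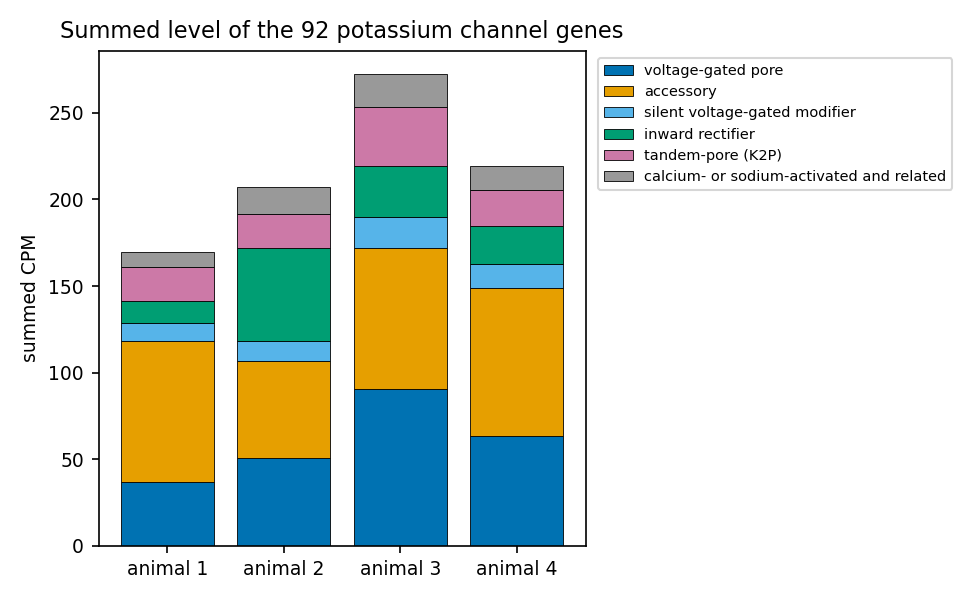
Summed CPM of the 92 potassium channel genes in each animal (vertical axis), stacked by channel class. The sums run from 169.9 to 272 CPM, the accessory part is mostly Kcnab1, and the inward rectifier part, mostly Kcnj8, is widest in animal 2.

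The pumps and cotransporters that work beside potassium channels were measured in the same libraries. Of 23 such genes 12 passed and 4 were at 0. All counts of passing genes in these lists stand beside 24.7% of all genes and 50.9% of protein-coding genes. The sodium pump was represented by the beta subunit Atp1b1 at 197 ± 69.9 CPM, and the pump regulators Fxyd1 and Fxyd6 stood at 227 ± 76.5 and 185 ± 63.2 CPM. Cotransporter genes passed in 4 cases, among them the potassium-chloride cotransporter Slc12a4 at 50.1 ± 10.0 CPM, while Slc12a1 was at 0. Among 13 partner subunits 5 passed, among them the calmodulin genes Calm2 and Calm3 at 692 and 118 CPM, the scaffold gene Akap9 at 83.9 ± 16.9 CPM and Amigo1.

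Other potassium-permeable channels were those of internal membranes. Of 7 such genes 3 passed: the lysosomal channel Tmem175 at 48.7 ± 6.18 CPM, and the endoplasmic reticulum channels Tmem38a at 14.7 ± 8.44 CPM and Tmem38b at 9.44 ± 4.24 CPM. The pacemaker genes Hcn3 and Hcn4 were at 0. Of 8 kinases and ligases that regulate potassium transport 6 passed. Sgk1, a serum- and glucocorticoid-induced kinase that raises the surface level of many channels, had 1693, 279, 328 and 1323 CPM, with animals 1 and 4 high and animals 2 and 3 low. Wnk1 had 60.1 ± 9.87 CPM and Stk39, a kinase that Wnk proteins activate, 45.4 ± 13.996 CPM.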

How the data were processed

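RNA of sorted mesothelial cells was sequenced after ribosomal RNA depletion, per the labels' protocols. The authors deposited estimated counts per gene symbol, 1 column per library. Per the submitters' processing notes, GRCm38.p5 was the build and limma 3.38.3, edgeR 3.24.3 and kallisto 0.43.1 were among the tools, with no role given. The step from transcripts to genes and the strand of the library are not given in the sources used here. Of the nonzero values 99.9% were not whole, and they were rounded for the tests. CPM is the value over the column total. Levels were tested with edgeR 4.0.16 under R 4.3.3, with column totals as library sizes and an intercept only; the statistic was computed from fitted and null deviances and tested on simulated data. Genes with a mean of 0.5 CPM or more, or above 1 CPM by the test, are named, and other members are counted; some items that enter the counts are not reported here. Transcript lengths and coordinates are from GENCODE M21 (GRCm38), and all 92 members matched; 67 had a promoter in the RefSeq table. Similar transcripts were searched with BLAST 2.17.0. The alternatives were TMM and DESeq2 size factors, limma 3.58.1 with voom weights, DESeq2 1.42.0, other thresholds, a count filter, other lengths and pseudocounts, and leaving out each animal. Members, lists and pairs were chosen with earlier results of these data known. The labels do not say whether each library is 1 mouse, so p-values measure only the spread between these samples.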

Additional observations from a re-analysis of the deposited data

Results flagged for a closer look

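Several levels had 1 animal far from the other 3, by the gap to the nearest animal over the whole range, above the Dixon critical value of 0.829 for 4 samples. Chance flags about 1 in 20 such groups where the values are normally distributed. That rate does not hold for values at 0 in all but 1 animal, as for Kcnip1 and for Kcnq1 over Kcnq5. There the gap equals the whole range and is always flagged. Animal 3 was the high one for Kcnk5 at 31.6 CPM, Kcnab2 at 3.28 CPM and Kcnip1 at 2.13 CPM. Animal 2 was the high one for Kcnj15 at 7.16 CPM, and with it the difference of Kcnj15 over Kcnj16 per length, at 2.07 on the log2 scale. Animal 1 was the high one for Kcnk2 at 2.47 CPM. The difference of Kcnq1 over Kcnq5 was -0.76 in animal 4 and 0 in the others, where neither gene had a count. Of these genes only Kcnk5 lay above 1 CPM by the edgeR test, and the others rest on at most 32.2 counts in all.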

How the results depend on the processing

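The number of potassium channel genes above 1 CPM was 15 with TMM or DESeq2 size factors and with a minimum of 10 counts, 13 with DESeq2's Wald test, 21 at a threshold of 0.5 CPM and 11 at 2 CPM. Of all genes 24.7% passed with TMM or DESeq2 size factors, 26.7% at 0.5 CPM and 22.7% at 2 CPM. It was 8 by limma with voom weights, where Kcnd1, Kcnc4, Kcnh3, Kcnip3, Kcnb2 and Kcng4 were among those that did not pass; the cause was not tested. Leaving out 1 animal gave 12 to 14 genes, summed levels of 199 to 233 CPM and a Kcnab1 share of 29.5% to 35.8%. The 7 genes that passed under every alternative were Kcnab1, Kcnj8, Kcnd3, Kcnk5, Kcns3, Kcnt2 and Kcna1. Among genes that did not pass, the level crossed 1 CPM by limma with voom weights for Kcnj15 (0.421 CPM), Kcnn1 (0.780) and Kcnk2 (0.996). It also crossed when 1 animal was left out, over ranges of 0.0749 (without animal 2) to 2.44 CPM for Kcnj15, 0.756 (without animal 2) to 2.06 for Kcnn4, 0.663 (without animal 2) to 1.65 for Kcnn1, 0.612 (without animal 1) to 1.25 for Kcnk2 and 0.153 to 1.26 (without animal 1) for Kcnab2. Pair differences turned sign for Abcc9 over Abcc8 (0.022 with the longest transcript, 0.34 without length), Kcnmb1 over Kcnmb4 (0.28 without length) and Kcnj15 over Kcnj16 (-0.0051 without animal 2 to 0.74); the cause was not tested. No paired analysis was possible because the series has 1 group. Depth limits the low members, whose counts allow no statement below 0.171 CPM over the group.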

Other observations

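Calcium entry genes, which supply the signal for calcium-activated channels, were chosen as a further list. Of 12 such genes 6 passed, led by the mechanosensitive channel Piezo1 at 75.3 ± 21.2 CPM, the store sensor Stim1 at 65.7 ± 5.603 CPM and Trpv4 at 45.6 ± 16.2 CPM, while the voltage-gated calcium channel genes Cacna1c and Cacna1g stood at 1.25 and 1.36 CPM and did not pass. In other channel families, 4 of 17 sodium channel genes passed, 5 of 26 calcium channel genes, 5 of 22 TRP genes and 6 of 9 Clcn genes, beside 24.7% of all genes.

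The order of the animals recurred among the 21 named members with 4 different values. Kcnk5, Kcns3 and Kcnt2 all ran from animal 3 through 4 and 1 to animal 2, an order seen in 4.31% of 11936 genes above 1 CPM. Kcnj8, Kcnd1, Kcnd2 and Kcng4 ran from animal 2 through 3 and 4 to animal 1, an order seen in 6.68% of them. Kcnc4, Kcnh3 and Kcnb2 ran from animal 4 through 3 and 1 to animal 2, an order seen in 3.74%. These orders were noticed after the values had been seen and have no test. Across all possible orders the share of genes above 1 CPM ran from 2.62% to 7.92%. Kcnd2 itself did not pass, so the members and the genes above 1 CPM are unlike sets.

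Among the members with a RefSeq promoter, 4 of 9 that passed had a start with at least 50% G and C and a CpG ratio (observed over expected) of 0.6 or more in the 300-base window, and so did 11 of 28 members at 0. Over the table this held for 74.7% of genes above 1 CPM and 11.8% of genes at 0. The windows were chosen after the levels had been seen.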
